A study of Mus musculus with 2 samples.

Results

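The RNA compared here came from regulatory T cells (Tregs) that had lost the transcription factor Bcl11b through Cd4Cre, set against wild-type Tregs on 1 two-colour Agilent array. It is 1 of the 2 arrays of the series, chosen because its labels name cells sorted as Foxp3-Gfp+. The red channel (Cy5) held the deficient RNA and the green channel (Cy3) the wild-type RNA. The deficient cells came from mice carrying floxed Bcl11b on both alleles, a Cd4Cre transgene and a Foxp3-GFP reporter (Bcl11bF/F/Cd4Cre/Foxp3-GFP+), and the control cells were wild-type Foxp3-GFP Tregs. Both pools had the genetic background C57BL\6. The wild-type pool came from 3 mice, and the labels used here do not give the number of mice in the deficient pool, the age or the sex of the animals. The Cd4 promoter drives Cre in developing thymocytes that carry both CD4 and CD8, so Bcl11b is removed before most Tregs arise and in the CD8 lineage as well. The other array of the series used Foxp3Cre, which acts in cells that already make Foxp3, and its values are given only for comparison.

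Bcl11b is a zinc finger factor that commits progenitors to the T cell fate and holds natural killer (NK) cell genes in check in T cells. Tregs are CD4 T cells that restrain immune responses. Their state rests on the forkhead factor Foxp3, and they carry receptors such as Ctla4 and the high-affinity interleukin 2 receptor. Granzymes and killer lectin-like receptors belong to the cytotoxic programme of NK cells and CD8 T cells.

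The array held 43379 gene-probe spots of 41174 probes, and the scanner software called 24439 of these spots well above background for wild type and 21773 for the deficient RNA. No spot was saturated. Each ratio is the log2 of deficient signal over wild-type signal, normalized within the array, so a negative value means less signal in the deficient pool, and each pool's level is given as a log2 signal of the same probe. The error beside a ratio is the scanner software's own, on the log2 scale, with a median of 0.23, and it covers measurement on this array but no difference between animals. With 1 array, no dye swap and no replicate, no difference has a replicate check and no p-value is given. Each pool is a mixture of sorted cells, so fewer cells of a type and less RNA per cell cannot be told apart in any value below. Of 15872 genes detected in at least 1 channel, 1809 (11.4%) reached 2-fold on the high side in the deficient pool and 1682 (10.6%) reached it on the low side. The median log2 ratio was -0.05, and 409 genes were past 4-fold upward against 190 downward. Higher genes made up 51.8% of those past 2-fold, or 68.4% where the array was only centred on its median, which moved the median of all detected genes to 0.07 and raised the ratios of bright genes most. By the scanner software's own ratio the share was 44.7%, with 2393 genes higher and 2964 lower.

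**Figure D1:**
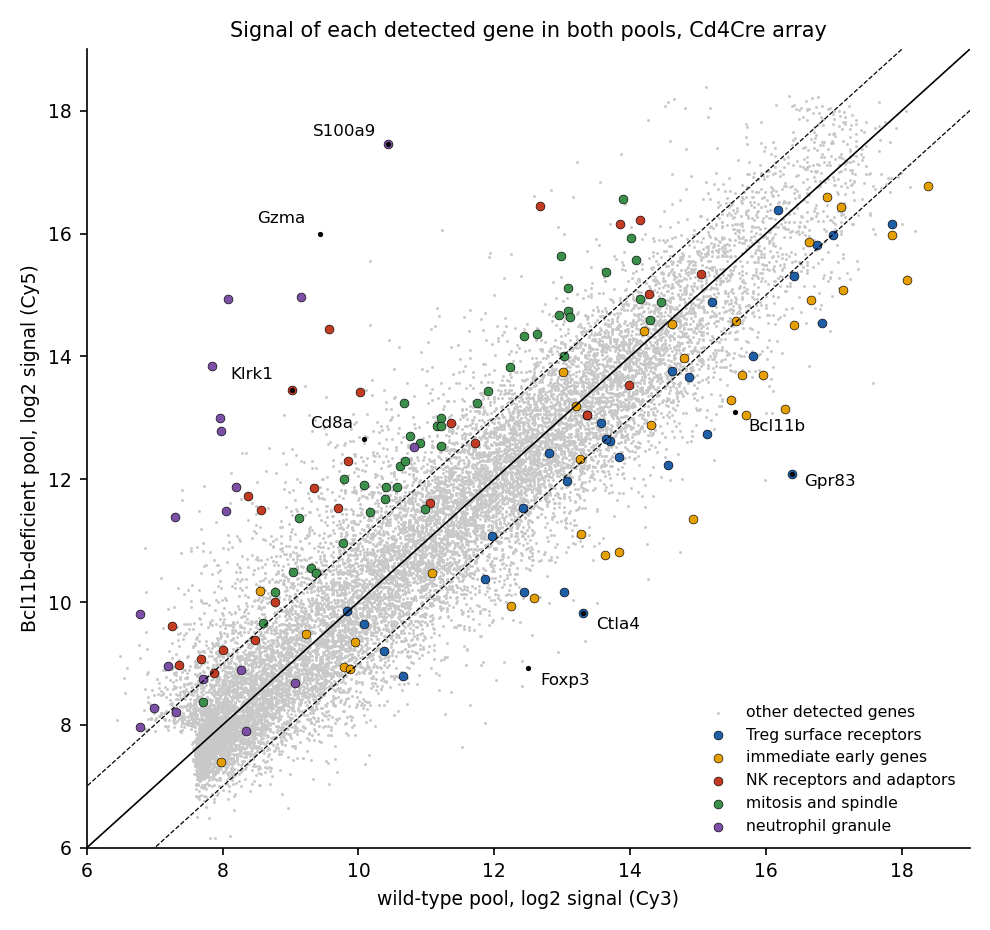
Log2 signal of each detected gene in the wild-type pool (horizontal axis, Cy3) and the Bcl11b-deficient pool (vertical axis, Cy5) on the Cd4Cre array. Each point is 1 gene, read from its brightest probe, the solid line marks equal signal and the dashed lines 2-fold. Foxp3, Ctla4, Gpr83 and Bcl11b lie below the lines, and Gzma, Klrk1, Cd8a and most neutrophil, NK and mitosis genes lie above them.

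The targeted gene was read by 2 probes. The brighter one lies on chromosome 12 at 109153847 to 109153906 (mm9, minus strand), and its 60 bases are shown because they check the label in coding sequence: they form an open reading frame, and the capitals mark the codons of a cysteine pair as found in zinc fingers.
Bcl11b probe: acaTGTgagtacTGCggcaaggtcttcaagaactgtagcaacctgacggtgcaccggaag
This probe gave a log2 signal of 15.55 in the wild-type pool and 13.09 in the deficient pool, a log2 ratio of -2.46 (error 0.30, 5.5-fold lower). The dimmer probe, at 109148932 to 109148991, gave 13.38 and 12.19, a ratio of -1.19 (error 0.23). Both probes thus read lower in the deficient pool, but signal well above background remained at both. The labels do not say which exon was floxed, so these probes cannot be placed inside or outside the deleted stretch, and the remaining signal cannot be assigned to undeleted cells or to a truncated transcript. Bcl11a, the paralogue that serves blood progenitors and B cells, ran the other way, from 10.16 to 11.89 (1.74, error 0.27).

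Treg transcription factors were lower in part. Foxp3 stood at a log2 signal of 12.50 in the wild-type pool and 8.93 in the deficient pool, a ratio of -3.57 (error 0.44, 11.9-fold lower), although both pools had been sorted on the Foxp3-GFP reporter. The lowest signal well above background in the deficient channel was 7.88, so Foxp3 lay not far above the floor there. The Ikaros family member Ikzf2 (Helios) went from 13.51 to 11.51 (-1.99). Both values put the deficient pool below wild type in factors that mark Tregs. Bach2, which restrains effector differentiation, went from 14.91 to 12.70 (-2.21), and Foxo1, which sustains naive and Treg genes, from 16.59 to 14.54 (-2.04). The zinc finger factor Plagl1 read -3.76 on its brightest probe, but its lowest and highest probes were at -3.76 and -0.19, so its size depends on the probe.

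Of the 37 detected Treg transcription factors, 11 were lower by 2-fold or more and 4 higher by as much. Over all detected genes 10.6% were lower and 11.4% higher, so the 4 higher members are near the share of all genes. The list's median was -0.57 against -0.05 over all genes. The other members past 2-fold on the low side were Ikzf1, Stat5b, Ikzf4, Foxp1, Nfatc2 and Satb1, and Ikzf4 is a bound, its deficient signal being too close to background. Under median centring 8 were lower, the list's median turned to 0.01 and Satb1 turned above 0. Gata3 (-0.71), Prdm1 (-0.59), Runx1 (0.42) and Cbfb (-0.12) lay within 2-fold. The members on the high side included regulators of other lymphocyte fates. The Th1 and NK factor Tbx21 (T-bet) went from 12.16 to 14.62 (2.45, error 0.31) and Id2, an inhibitor of E proteins, from 14.50 to 16.37 (1.87). Eomes, the factor of CD8 memory and NK cells, went from 8.93 to 10.25 (1.33). These 3 factors were well above background in both pools and higher in the deficient one.

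Surface receptors of Tregs were lower almost throughout. Of 30 detected members, 18 were lower and 0 higher by 2-fold or more, and the median was -1.10. Under median centring 11 were lower, with a median of -0.70, and 1 was higher. The orphan receptor Gpr83 went from 16.38 to 12.09 (-4.28, error 0.45, 19.5-fold lower), the lowest ratio of any gene detected in both channels. Ctla4, which takes up costimulatory ligands, went from 13.31 to 9.83 (-3.48, error 0.41). Il2ra, the alpha chain of the interleukin 2 receptor, went from 13.02 to 10.16 (-2.86, error 0.35), with its 4 detected probes between -2.86 and -0.97. In each of these receptors the gap between the pools was several times the scanner error. The integrin Itgae (CD103) went from 14.56 to 12.23 (-2.32), and the costimulatory receptor Tnfrsf4 (OX40) from 16.83 to 14.55 (-2.28). Icos went from 16.41 to 15.31 (-1.10), while Tnfrsf18 (GITR) at -0.94, Nrp1 at -0.44 and Klrg1 at -0.33 did not reach 2-fold. The interleukin 4 and interleukin 6 receptor chains Il4ra (-2.39), Il6ra (-2.28) and Il6st (-1.46) were among the lower members. These 3 were nearly as low on the Foxp3Cre array, at -2.04, -2.31 and -1.41, whereas Gpr83 (-0.94), Ctla4 (1.22) and Il2ra (-0.37) were not.

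Suppressor effectors differed in both directions. The cytokine Il10 had a log2 signal of 11.87 in the wild-type pool and 8.03, not well above background, in the deficient pool, so it was at least 14.3-fold lower. The matrix protein Ecm1 went from 16.09 to 13.08 (-3.01) and the growth factor Areg was at least 2.33-fold lower. Nt5e (CD73), which makes adenosine, read -1.52 and Tgfb1 -1.05. On the other side, granzyme B (Gzmb) went from 12.98 to 15.30 (2.31, error 0.30) and the lectin Lgals1 from 15.17 to 18.04 (2.87). Of 24 detected members, 9 were lower and 4 higher at 2-fold, and the median of -0.21 turned to 0.10 when only genes with signal in both channels were read. Entpd1 (CD39), Ebi3, Lag3 and Prf1 (perforin) lay within 2-fold.

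Interleukin 2 and T cell receptor signalling genes were mostly below 0. Of 22 detected genes of the interleukin 2 and STAT5 pathway, 11 were at least 2-fold lower and 1 higher (median -0.95), among them the kinases Jak3 (-1.81), Jak1 (-1.53) and Pim1 (-2.39) and the feedback inhibitor Cish (-1.40). Il2rb, the shared beta chain, stood at -1.01 but turned above 0 under median centring, where 4 members were lower. The single higher member was Il2 itself, a cytokine that Tregs do not normally make, from 8.03 to 9.37 (1.34). Of 32 detected genes of T cell receptor signalling, 11 were lower and 1 higher (median -0.84), and 3 were lower under median centring. Cd6 (-1.85), Cblb (-1.82) and Cd5 (-1.70) led this group. The receptor's own chains Cd3e (-0.93), Cd3d (-0.34) and Cd3g (-0.23) stayed within 2-fold and were well above background in both pools, so both pools held T cell transcripts. Both lists had like medians on the Foxp3Cre array, at -0.78 and -0.72.

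Immediate early genes, which cells switch on within minutes of stimulation, formed the list with the lowest median on this array. Of 35 detected members, 18 were at least 2-fold lower and 1, Ier3, higher (1.63), with a median of -1.42; under median centring 13 were lower and 3 higher, with a median of -0.73. The AP-1 subunit Fos went from 16.28 to 13.15 (-3.14, error 0.35) and Jun from 12.24 to 9.94 (-2.30). Nr4a1, a nuclear receptor that reports T cell receptor signals, went from 18.07 to 15.25 (-2.82). The stress phosphatase subunit Ppp1r15a went from 14.92 to 11.36 (-3.57), while Egr2 (0.01), Egr3 (0.25) and Dusp6 (0.20) were alike in both pools. On the Foxp3Cre array Fos (0.03) and Jun (0.03) were level and the list's median was -0.41. The promoter of Ppp1r15a is shown because it has the most negative ratio in the list and holds a cyclic AMP response element (CRE, the letters TGACGTCA) shortly before its start. This promoter and those that follow are RefSeq sequence of the build GRCm38.p6, 5′ to 3′ on the gene's strand, 130 bases before to 30 after the listed start, with the named motif in capitals on either strand.
Ppp1r15a promoter, chr7:45526239-45526398: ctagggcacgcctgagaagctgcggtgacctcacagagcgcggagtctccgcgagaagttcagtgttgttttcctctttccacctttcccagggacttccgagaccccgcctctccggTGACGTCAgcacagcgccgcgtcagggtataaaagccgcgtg
The CRE was found in 3 of 26 immediate early promoters (11.5%) against 3.24% of promoters of detected genes, 2.93% of those of genes at least 2-fold lower and 1.88% of all 27025 mouse promoters, over windows of 300 bases.

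Inhibitors of NF-kB signalling were lower in part. Tnfaip3 (A20), a brake on NF-kB, went from 17.58 to 13.56 (-4.02, error 0.44, 16.2-fold lower). The atypical inhibitors Nfkbid (-2.67) and Nfkbiz (-2.47) and the A20 partner Tnip1 (-1.69) were lower as well, while the inhibitors Nfkbib (-0.10) and Nfkbie (-0.05) and the related Bcl3 (-0.29) were nearly level. Of 20 detected NF-kB pathway genes, 9 were at least 2-fold lower, 0 higher and 0 above 0, with a median of -0.75; under median centring 5 were lower, 6 lay above 0 and Nfkbia turned above 0. The subunit Rela read -1.19, whereas Nfkb2 (-0.48) and Relb (-0.37) lay within 2-fold. Nfkb1 read -0.53 on its brightest probe, but its 4 detected probes ranged from -2.07 to -0.53. Averaging a gene's probes instead brought 11 members past 2-fold on the low side and moved the median to -1.10.

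**Figure D2:**
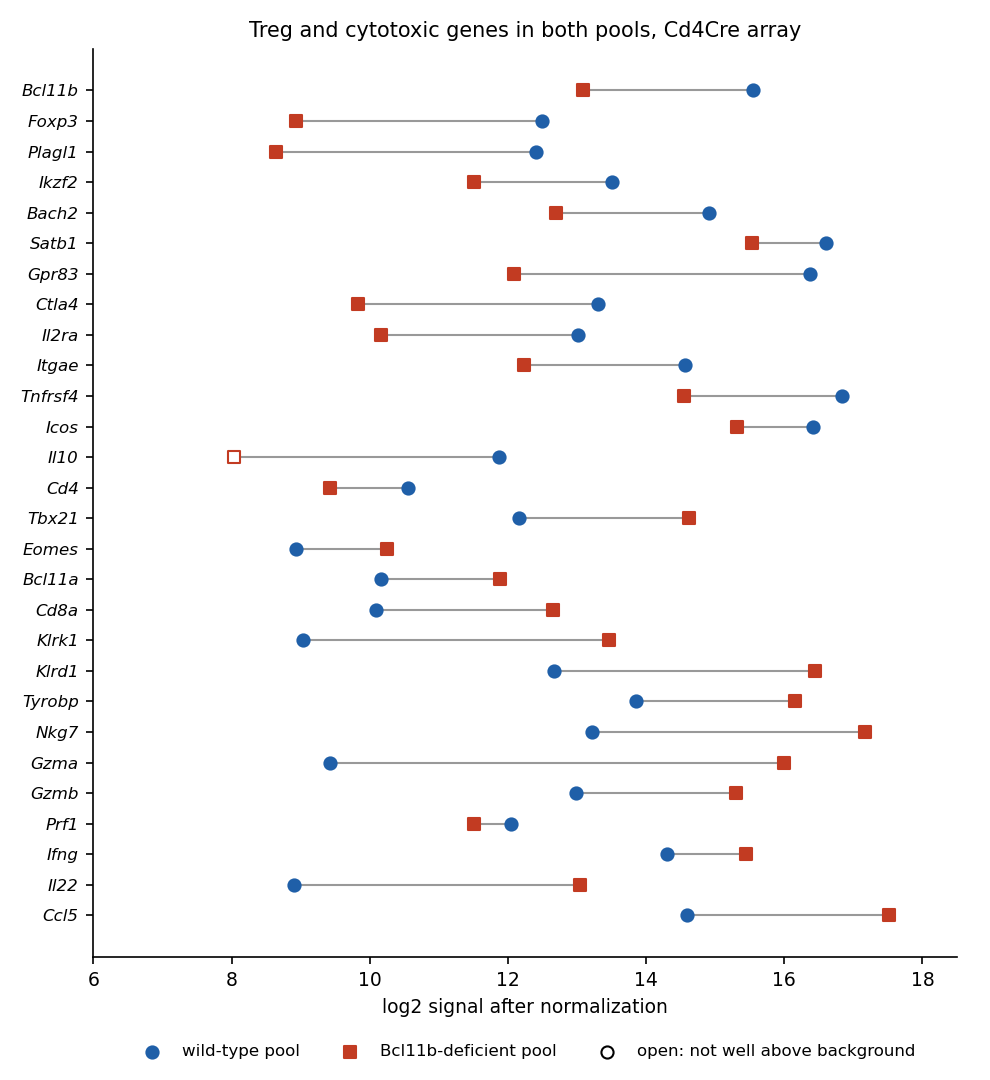
Log2 signal (horizontal axis) of 28 genes in the wild-type pool (circles) and the Bcl11b-deficient pool (squares) on the Cd4Cre array, with open symbols where a channel was not well above background. Treg genes from Foxp3 to Cd4 have the deficient pool to the left, with Foxp3 at 8.93 against 12.50, and from Tbx21 on the deficient pool is to the right except in Prf1, with Gzma at 16.00 against 9.43.

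Receptors and adaptors of NK cells were higher in the deficient pool. Of 25 detected members, 17 were higher and 0 lower by 2-fold or more (median 1.61), and under median centring 20 were higher. Klrk1 (NKG2D), an activating receptor for stress ligands, went from 9.03 to 13.46 (4.43, error 0.51, 21.5-fold higher), and its probes ranged from 2.11 to 4.43. Klrd1 (CD94), the partner chain of the NKG2 receptors, went from 12.67 to 16.45 (3.78, error 0.42). The inhibitory partner Klrc1 (NKG2A) went from 8.37 to 11.73 (3.36) and the activating partner Klrc2 (NKG2C) from 9.57 to 14.44 (4.88). The NKG2 genes and their partner were therefore higher on both the activating and the inhibitory side, with little signal in the wild-type pool except for Klrd1. The adaptors Tyrobp (DAP12) at 2.31 and Fcer1g at 2.06, which couple such receptors to kinases, were also higher, while Hcst (DAP10), the partner of NKG2D, was nearly level at 0.29 with a signal of 15.05 in the wild-type pool. Ncr1 (NKp46), a receptor that defines NK cells, went from 7.68 to 9.07 (1.39), close to the floor in both pools. Cd96 (-0.46) and Klrg1 (-0.33) were the members below 0.

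The killer lectin-like genes lie together on chromosome 6, and nearly all that could be read were higher. Between 128568515 and 131180206 (mm9, first bases of the outermost probes) 22 Klr genes were detected, of which 18 were at least 2-fold higher. Of 13 other genes detected in the same stretch, 4 were at least 2-fold higher, 1 lower, and their median was 0.51. The lower one was Cd69 (-1.95), a lectin-like receptor of recent activation. Its neighbour Clec2d, a ligand of Klrb1 receptors, stood at 2.34. Klrb1b was at least 17.9-fold higher, with no signal well above background in the wild-type pool. The Klra (Ly49) genes are near-identical copies whose probes may bind each other's transcripts, and Klrc2, Klrb1f and Klrb1c have probes that differ by over 1, so the single values of this family are uncertain.

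Cytotoxic granule proteins were higher in part. Granzyme A (Gzma) went from 9.43 to 16.00 (6.57, error 0.71, 94.9-fold higher), the third highest ratio of the array. Nkg7, a granule membrane protein, went from 13.22 to 17.17 (3.94), and the granzymes Gzmc (2.93), Gzmk (2.15) and Gzmm (1.64) were higher. Perforin (Prf1), the pore former that granzymes need, did not follow, from 12.04 to 11.51 (-0.53, error 0.21). The docking factors Unc13d (-0.84) and Rab27a (-2.02) were also not higher, but Rab27a has another probe at 0.06. Of 18 detected members, 9 were higher and 1 lower by 2-fold or more (median 1.07). On the Foxp3Cre array Gzma read 0.70, Klrk1 0.57 and Klrd1 0.15. Their wild-type signals there were 12.10, 9.91 and 14.03, against 9.43, 9.03 and 12.67 here.

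Promoters of these cytotoxic genes are shown because they hold a site for Runx factors, which switch on cytotoxic genes in CD8 T and NK cells; the capitals mark the letters TGTGGTT or their reverse complement.
Klrk1 promoter, chr6:129623835-129623994: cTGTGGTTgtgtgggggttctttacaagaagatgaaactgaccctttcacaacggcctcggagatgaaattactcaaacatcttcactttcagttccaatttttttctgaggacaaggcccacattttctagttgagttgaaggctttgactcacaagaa
Cd160 promoter, chr3:96829322-96829481: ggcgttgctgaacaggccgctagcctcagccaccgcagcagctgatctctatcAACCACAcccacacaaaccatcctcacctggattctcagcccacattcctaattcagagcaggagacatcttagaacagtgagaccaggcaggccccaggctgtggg
Gzma promoter, chr13:113100952-113101111: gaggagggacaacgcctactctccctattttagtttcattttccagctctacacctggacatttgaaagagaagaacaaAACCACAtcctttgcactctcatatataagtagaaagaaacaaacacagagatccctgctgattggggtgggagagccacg
Gzmb promoter, chr14:56262305-56262464: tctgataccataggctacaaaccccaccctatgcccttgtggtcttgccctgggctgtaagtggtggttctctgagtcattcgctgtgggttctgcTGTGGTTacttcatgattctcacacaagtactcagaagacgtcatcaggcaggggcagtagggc
Among the NK receptor genes with a listed promoter, 5 of 18 held this Runx site (27.8%), and among the granule genes 4 of 16, against 3.85% of promoters of detected genes and 5.37% of all 27025. The letters TGACCA, known as a binding site of the related factor BCL11A, were in 7 of 18 NK receptor promoters (38.9%) and 4 of 16 granule promoters, against 1114 of 10161 promoters of detected genes and 13.6% of all. They were in 1 of 22 Treg receptor promoters (4.55%) and 0 of 26 promoters of T cell receptor signalling genes. They were also in 6 of 18 promoters of Treg suppressor effectors (33.3%) and 5 of 14 of cytokines (35.7%), so they did not separate cytotoxic from Treg lists. Shares of the Runx site in other lists are not given here. The Runx values therefore do not show whether that site separates cytotoxic from other lists. A match of letters is not a bound site. The whole set of genes at least 2-fold higher held the Runx site in 5.04% and TGACCA in 12.9% of promoters, against 3.67% and 10.8% for genes within 2-fold.

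Genes of the CD8 lineage moved apart from those of the CD4 lineage. Cd8a went from 10.09 to 12.66 (2.56, error 0.32) and Cd8b1 from 14.60 to 15.79 (1.19), while Cd4 went from 10.56 to 9.43 (-1.13). The deficient pool thus carried more CD8 and less CD4 transcript than the wild-type pool, in cells labelled as Tregs. Zbtb7b (ThPOK), the CD4 fate factor, was at -0.57 and Runx3, its CD8 counterpart, at -0.04. Of the 12 detected NK cell markers 9 were at least 2-fold higher (median 1.50), and 8 genes of that list are shared with the NK receptors above. The list members Itga2 and Klra4 were not detected in either pool. Of 12 detected markers of gamma delta and innate-like T cells, 7 were at least 2-fold higher and 1, Ccr6 (-1.08), lower. Of these 7, Il23r had signal in the deficient channel only, with a bound of 1.97-fold. Under plain background subtraction 5 were higher. The higher ones included the variable segment Trgv4 (11.07 to 14.45, 3.37), the scavenger receptor Cd163l1 (10.71 to 13.56, 2.85) and Il1r1 (8.98 to 11.80, 2.83), whereas Sox4 (-0.36) and Maf (-0.37) lay within 2-fold and Sox13 was not detected. The part of CD8, NK or gamma delta T cells in the cytotoxic values was not tested.

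Of 17 detected cytokines 9 were at least 2-fold higher and 3 lower, and of 17 detected chemokines 12 were higher and 0 lower (median 1.38). Among those 12 chemokines, 2 had signal in the deficient channel only, and their bounds did not pass 2-fold. With 1-channel genes set at their bound the chemokine median was 1.32. Where signal in both channels was required, 10 of 12 chemokines were higher. The lower cytokines were Il10, the macrophage growth factor Csf1 (-1.47) and Tgfb1 (-1.05). Il22, a cytokine that acts on epithelia, went from 8.90 to 13.04 (4.13, error 0.49), and the interferon Ifng from 14.31 to 15.44 (1.13). Xcl1, a chemokine of NK and CD8 T cells, went from 9.79 to 12.96 (3.17), and the growth factor Csf2 was at least 5.14-fold higher. Il4 (1.47) and Il17a (1.09) were higher from low signals of 9.08 and 7.84. These cytokines belong to several helper classes, so the values do not fall into 1 class. The chemokine Ccl5 went from 14.59 to 17.51 (2.92), and Ccl3, Ccl4, Ccl6 and Ccl9, which draw in inflammatory cells, stood between 2.26 and 2.62. Among chemokine receptors, Cxcr6 went from 12.25 to 15.67 (3.42), and Cx3cr1 (2.22) and Cxcr3 (1.40) were also higher. Ccr7, which guides cells into lymph nodes, was lower, from 14.99 to 13.49 (-1.50), as were Ccr3 (-1.47), Ccr8 (-1.17) and Ccr6 (-1.08). Of 35 detected homing genes 9 were higher and 9 lower, so the list's median of -0.11, which turned to 0.47 under median centring, hides both directions. The interleukin 18 receptor chains Il18rap (2.68) and Il18r1 (1.52) were higher too.

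Effector-memory genes were higher in part and naive genes were level or lower. The calcium-binding S100a4 went from 15.12 to 18.38 (3.26), the lectin Lgals3 from 12.94 to 16.11 (3.17), and Anxa1 (2.45) and Anxa2 (2.20) were higher. Of 20 detected members of this group, 10 were at least 2-fold higher and 0 lower, against 11.4% and 10.6% of all detected genes, and 16 lay above 0. Capg (-0.85), Itgb1 (-0.13), Anxa5 (-0.06) and Vim (0.42) were among those within 2-fold. Of 27 naive and quiescent T cell genes, 8 were at least 2-fold lower and 0 higher, with a median of -0.41 that turned to 0.21 under median centring. Tcf7 (-0.77), Lef1 (-0.06) and Il7r (-0.32), which mark long-lived naive and memory cells, lay within 2-fold.

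Cell division genes were higher in the deficient pool over nearly the whole of both lists. Of 42 detected mitosis and spindle genes, 42 had a positive ratio, 36 of them past 2-fold, and the median was 1.56. Birc5 (survivin) went from 13.90 to 16.56 (2.67, error 0.32), the kinase subunit Cks1b from 12.99 to 15.64 (2.65) and the topoisomerase Top2a from 10.67 to 13.24 (2.57). The common proliferation marker Mki67 differed less, from 14.15 to 14.94 (0.79, error 0.22). Of 38 detected DNA replication genes, 37 had a positive ratio, 21 of them past 2-fold, and the median was 1.05. Rrm2, which makes deoxynucleotides, went from 11.63 to 14.42 (2.79), and the cyclins Ccne2 (2.35) and Ccne1 (2.02), which start S phase, were higher. The DNA polymerase subunit Pold1 was the exception, from 14.58 to 13.50 (-1.08). The helicase subunits Mcm2 to Mcm7 were above 0 but none reached 2-fold, from 0.27 for Mcm4 to 0.96 for Mcm7. On the Foxp3Cre array the medians of the mitosis and replication lists were 0.46 and 0.11, and Mcm2 (-1.31) and Mcm3 (-1.02) were lower there.

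The promoters of division genes hold well-known elements, shown for members past 2-fold. The CHR element (letters TTTGAA or TTCGAA) and the CCAAT box, in capitals below, are found in genes of the late cell cycle.
Cks1b promoter, chr3:89418262-89418421: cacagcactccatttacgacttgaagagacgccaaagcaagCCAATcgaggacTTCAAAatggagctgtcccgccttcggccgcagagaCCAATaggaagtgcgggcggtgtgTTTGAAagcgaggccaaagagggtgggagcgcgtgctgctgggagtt
Top2a promoter, chr11:99024160-99024319: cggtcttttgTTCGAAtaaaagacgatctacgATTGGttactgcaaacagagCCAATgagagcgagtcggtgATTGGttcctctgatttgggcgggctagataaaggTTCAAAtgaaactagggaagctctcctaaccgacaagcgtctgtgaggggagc
Spc25 promoter, chr2:69206184-69206343: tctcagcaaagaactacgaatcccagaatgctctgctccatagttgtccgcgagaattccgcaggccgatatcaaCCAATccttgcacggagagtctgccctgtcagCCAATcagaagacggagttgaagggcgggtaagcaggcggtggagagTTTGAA
In the 2 replication genes that follow, the capitals mark a site of E2F factors, which drive S phase genes.
Rfc3 promoter, chr5:151651179-151651338: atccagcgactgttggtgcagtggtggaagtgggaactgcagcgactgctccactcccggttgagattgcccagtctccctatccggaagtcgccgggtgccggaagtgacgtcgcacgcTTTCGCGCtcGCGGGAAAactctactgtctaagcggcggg
Gins3 promoter, chr8:95633429-95633588: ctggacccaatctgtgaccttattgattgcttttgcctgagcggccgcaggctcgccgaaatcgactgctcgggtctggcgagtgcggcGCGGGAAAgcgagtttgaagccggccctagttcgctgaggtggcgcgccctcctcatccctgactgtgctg
A CHR was in 25 of 34 mitosis promoters (73.5%) against 14.0% of promoters of detected genes and 19.4% of all promoters, and a CCAAT box in 26 of 34 (76.5%) against 38.7% and 37.9%. The CCAAT box was also in 14 of 16 cholesterol synthesis promoters (87.5%) and in 60.9% of chaperone and of chromatin promoters. Those 3 lists had median ratios of 0.23, -0.25 and -0.34. Cytokines had the box in 1 of 14 promoters (7.14%). An E2F site (letters TTTCCCGC, TTTGGCGC, TTTCGCGC or TTTGCCGC) was in 10 of 32 replication promoters (31.2%) against 4.03% of promoters of detected genes and 2.32% of all, and in 1 of 34 mitosis promoters (2.94%). Over the whole array, a CHR was in 21.9% of promoters of genes at least 2-fold higher, 10.9% of those at least 2-fold lower and 13.3% of those within 2-fold.

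Genes of mitochondrial respiration were shifted by small amounts in 1 direction. Of 58 detected subunits, 53 had a positive ratio, 14 of them past 2-fold. The median was 0.83, and the highest ratio was that of Cox6a1, a subunit of cytochrome oxidase (16.15 to 18.09, 1.94). Large ribosomal subunit proteins had a median of 0.38, with 8 of 38 at least 2-fold higher. Both lists consist of bright genes and depended on the normalization: under median centring 47 respiration and 32 ribosomal genes were at least 2-fold higher. Glycolysis genes had a median of 0.09, with Tpi1 (1.29) and Slc16a1 (1.20) higher and Hk1 (-1.48) lower.

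**Figure D3:**
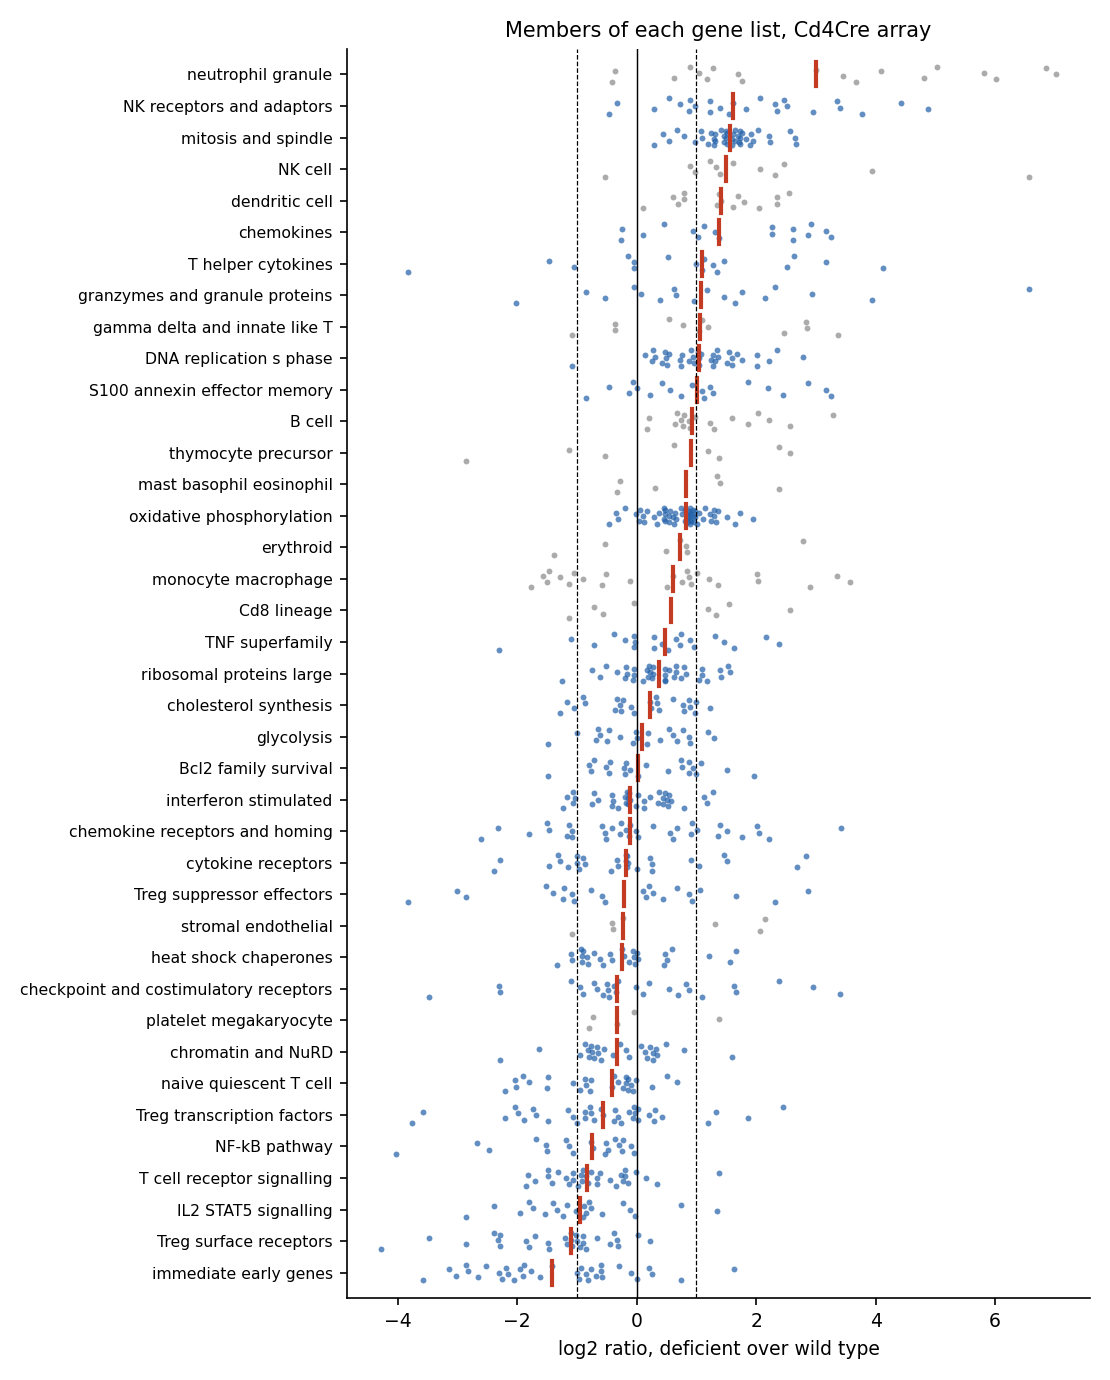
Log2 ratio (horizontal axis, deficient over wild type) of each detected member of 39 gene lists on the Cd4Cre array, 1 row for each list, ordered by the median (red bar). Grey points are cell type markers, blue points other genes, and dashed lines mark 2-fold. Medians run from -1.42 for the immediate early genes to 3.00 for the neutrophil granule genes.

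Markers of other cell types were higher in the same pool as the cytotoxic and division genes. Of 19 detected neutrophil genes, 15 were higher and 0 lower by 2-fold or more (median 3.00). The calprotectin chains S100a9 (10.44 to 17.46, 7.02, error 0.74, 129-fold) and S100a8 (8.08 to 14.94, 6.86) had the 2 highest ratios of the array. The antimicrobial peptide Camp was at least 64.4-fold higher, and the granule proteins Ltf (5.02), Ngp (4.81) and Mpo (3.67) were higher from wild-type signals of 7.97 to 8.20, near the floor of 7.55. Neutrophil transcripts were thus scarce in the wild-type pool and plain in the deficient pool. In the wild-type channel 12 of the 19 were well above background against 18 in the deficient channel, the median with 1-channel genes set at their bound was 2.24, and Prtn3, Fcnb and Stfa2 were not detected in either pool. The list's median log2 signal was 7.98 in the wild-type pool and 11.39 in the deficient pool. On the Foxp3Cre array the list's median was 1.47, with 11 of 17 at least 2-fold higher against 2.94% of all genes detected there.

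Monocyte and macrophage genes did not move together. Lyz2 (lysozyme) went from 14.27 to 17.85 (3.58), Clec4e was at least 10.1-fold higher and the monocyte antigen Ly6c2 read 2.01. Other members were lower, with Csf1r, the receptor of the macrophage growth factor, from 14.11 to 12.60 (-1.50), the lipid carrier Apoe from 16.21 to 14.64 (-1.57) and the mannose receptor Mrc1 from 10.53 to 8.77 (-1.76). The complement genes C1qa (-1.29) and C1qc (-1.14) were lower too, while C1qb (-0.90) and the macrophage markers Adgre1 (-0.51) and Cd68 (-0.11) lay within 2-fold. Of 25 detected genes 8 were higher and 7 lower at 2-fold. The list's median log2 signal was 11.71 and 12.20.

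Dendritic and B cell markers were higher without exception in sign. Of 15 detected dendritic cell and class II genes, 10 were at least 2-fold higher, including the class II chain H2-Ab1 (14.62 to 16.97, 2.35) and the integrin Itgax (11.83 to 13.87, 2.04); 14 of the 15 were above 0 under median centring, and as many by the scanner software's ratio. All 18 detected B cell genes lay above 0 and 8 were at least 2-fold higher, including Jchain, the joining chain of secreted antibody (13.56 to 16.84, 3.28), and Ms4a1 (CD20, 12.71 to 14.74, 2.03). Pax5 was not detected. Their median log2 signals were 10.99 against 13.54 for dendritic and 10.90 against 12.11 for B cell markers. Markers of red cells, platelets, mast cells and stroma had few detected members, 7, 5, 6 and 7. Among them Car2 (2.79), Kdr (2.15) and Cdh5 (2.06) were higher, and Gata1 (-1.39) and Pecam1 (-1.09) lower. The part of cells other than T cells in the values of the deficient pool was not tested. The cytotoxic genes Gzma and Nkg7, the cytokines, the S100 genes and the division genes were higher in the same RNA as these markers. Genes shared by T cells spread widely. The receptor chains Cd3e, Cd3d and Cd3g were at -0.93, -0.34 and -0.23, and Cd6, Cd5 and Cd4 at -1.85, -1.70 and -1.13. Of the 32 detected members of their list, 11 were at least 2-fold lower and 1 higher. Foxp3 stood at -3.57 and Ctla4 at -3.48.

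Sex-linked transcripts differed between the pools. The Y-linked genes Ddx3y (12.14 to 9.02, -3.12), Eif2s3y (12.43 to 10.19, -2.24) and Kdm5d (10.73 to 8.68, -2.04) were lower in the deficient pool. Xist, which females express, was bright in both pools on its brightest probe, at 14.67 and 15.30 (0.63). Its 4 detected probes ranged from 0.63 to 2.26, all higher in the deficient pool. Apart from Ddx3y, which is among the 25 lowest, these genes were picked with their values known. The part of sex in the other values was not tested.

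**Figure D4:**
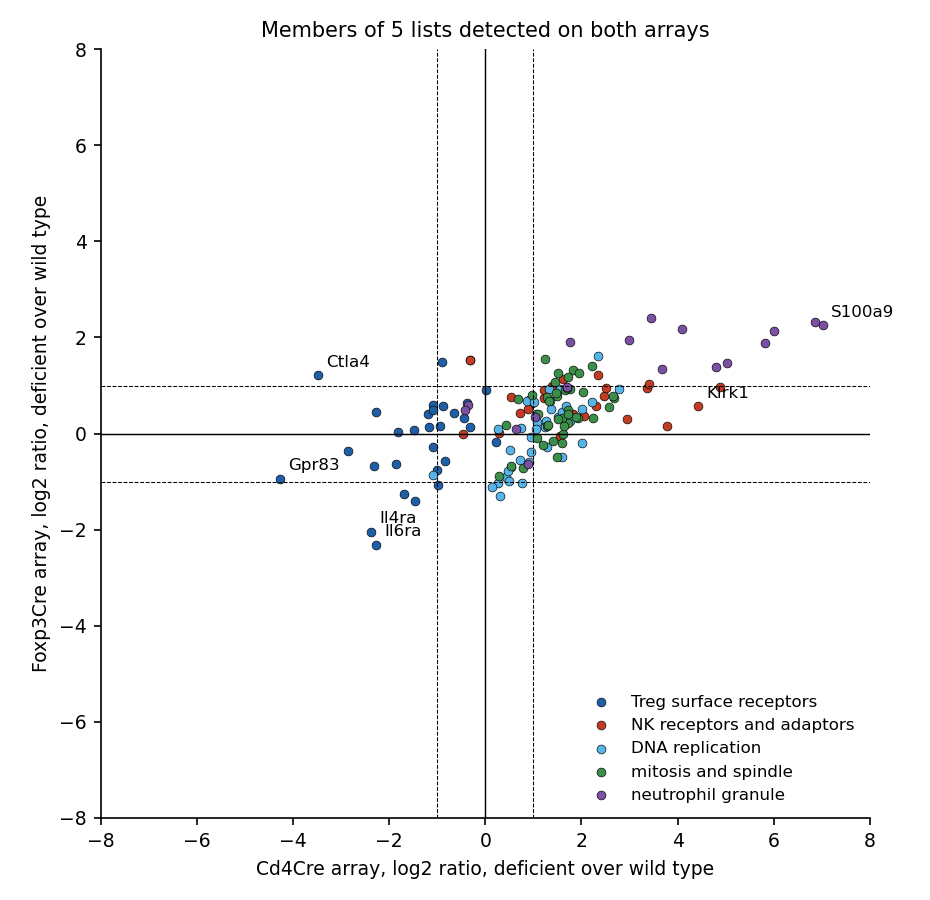
Log2 ratio of deficient over wild type on the Cd4Cre array (horizontal axis) and the Foxp3Cre array (vertical axis) for members of 5 lists detected on both; dashed lines mark 2-fold. Neutrophil genes lie right of and above 0 for the most part, with S100a9 at 7.02 and 2.25, NK receptors spread along the horizontal axis, and Ctla4 lies on opposite sides at -3.48 and 1.22.

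The Foxp3Cre array, hybridized with other pools, gave a different balance: of 15189 detected genes, 446 (2.94%) reached 2-fold on the high side and 1749 (11.5%) on the low side. Treg receptors had a median of 0.11 there against -1.10 here, and 27 of 30 read lower on the Cd4Cre array. NK receptors had a median of 0.69 against 1.61, and 22 of 25 read higher on the Cd4Cre array. Foxp3 was nearly level on the Foxp3Cre array at -0.20, with a wild-type signal of 10.02 there against 12.50 here. S100a9 stood at 14.55 and 16.80 in the wild-type and deficient pools there, against 10.44 and 17.46 here. In these 2 genes the wild-type pools of the arrays thus differed as well as the ratios. Bcl11b read -1.82 and -0.32 at its brighter and dimmer probe there. With 1 array in each Cre system the difference between them was not tested, and the arrays differ in pools and sorting as well as in Cre. They also differ in sex-linked transcripts. On the Foxp3Cre array Xist was not detected, and Ddx3y stood at 12.49 and 13.03 in the wild-type and deficient pools.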

How the data were processed

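The deposited file of the array holds, for each spot, the mean and background intensity of both channels and a log10 ratio (red over green) from the scanner software, with an error. Per the file headers, the software was Agilent Feature Extraction 10.5.1.1, while the submitters' processing notes name 10.5.1. The value table that the authors deposited differed from this log10 ratio by 0 at most and offered no other processing. From the deposited intensity values, background was corrected with normexp (offset 50) and ratios normalized by loess within the array, leaving control spots out of the curve (weight 0); limma 3.58.1 and R 4.3.3 were used. The 137 spots marked as outliers were dropped before repeated spots were averaged; the median SD of 245 repeated probes was 0.056 (log2). Probe names came from a RefSeq table of GRCm38.p6 (24843 probes by accession, 6045 by symbol, 1810 by synonym), 8475 kept the file's name, and probe coordinates are mm9. The brightest of a gene's probes, by the mean over both arrays, gave its value. Where 1 channel alone was well above background, a bound was set against the lowest signal well above background (7.55 wild type, 7.88 deficient), per channel after Aquantile normalization and open to dye bias. Named genes are members of 40 lists, the 25 highest and lowest ratios and the 15 highest bounds each way; a few are counted but not reported here by name. The members and lists were chosen with earlier results of these data known. On simulated data with few changed probes, drawn at random up or down, all 4-fold changes were recovered past 2-fold. Changes as many or as uneven as on this array were not simulated. Promoters matched 10161 of 15872 detected genes. Alternatives were offset 10, no or plain background subtraction, median centring, the software's ratio, other filters, the mean over probes and outlier spots kept.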

Additional observations from a re-analysis of the deposited data

Results flagged for a closer look

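Among 789 list members that both arrays detected, 5 passed 2-fold in opposite directions on the arrays; the difference was not tested, so only values are given. The inhibitory receptor Ctla4 read -3.48 with Cd4Cre and 1.22 with Foxp3Cre. The eotaxin receptor Ccr3 read -1.47 and 1.43, and the mannose receptor Mrc1 -1.76 and 1.30. The chaperone genes Dnajb4 and Hspb1 read -1.34 and -1.10 against 1.19 and 1.27.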

How the results depend on the processing

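No paired analysis was possible because each pool was hybridized once and the labels give no shared replicate numbers. Without replicates no sample could be left out. Under 9 alternatives, 297 of the 382 named genes past 2-fold stayed past it wherever they were read, and 29 of 40 list medians kept their sign; median centring accounts for most of the others. Bcl11b read -2.46, but -1.78 under median centring and -1.83 as the mean of its probes. Under median centring the genes at least 2-fold higher went from 1809 to 2858 and the Treg receptors at least 2-fold lower from 18 to 11; the genes at least 2-fold lower were 2964 with the scanner software's ratio against 1682. The neutrophil genes at least 2-fold higher fell from 15 to 9 where signal in both channels was required, because 6 had it in 1 channel. Of named genes past 2-fold, 5 turned in sign, all under median centring: Igtp to 0.20, Il2rb to 0.22, Nfkbia to 0.18, Ptprc to 0.26 and Satb1 to 0.03. Of the 1809 higher and 1682 lower genes, 207 and 184 had signal well above background in 1 channel, and for 147 and 99 of these the bound itself passed 2-fold. Of 5408 genes with several detected probes, 33 had probes past 2-fold in opposite directions. The fixed dye assignment, the unknown make-up of the pools and the lack of replicates limit every value.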

Other observations

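Several of the most changed genes belong to no list. The interferon-induced membrane proteins Ifitm1 (10.17 to 15.56, 5.39), Ifitm6 (9.22 to 13.52, 4.30) and Ifitm7 (10.45 to 14.27, 3.83) were among the 25 highest ratios, while 37 detected interferon-stimulated genes as a list were nearly level (3 at least 2-fold higher, 5 lower, median -0.11, and 0.38 under median centring). Plac8 (4.03), the kinase Dapk2 (4.13) and the haemoglobin scavenger Hp (3.82) were also high. The linker histone H1f4 read 3.88 on its brightest probe and 0.07 on its lowest. Among the 25 lowest were the cohesin subunit Rec8 (-3.76, with another probe at -1.41), the AP-1 partner Maff (-3.52), the growth factor receptor inhibitor Lrig1 (-3.30), the neuronal surface protein Nrn1 (-3.12), the receptor Igf1r (-3.08, with another probe at -0.88) and the iron exporter Slc40a1 (-2.99).

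Other lists moved little or in both directions. Over all detected genes 11.4% were at least 2-fold higher and 10.6% lower, and the cholesterol synthesis and chaperone counts below lie near these shares. Of 28 checkpoint and costimulatory receptors, 6 were at least 2-fold higher, among them Cd244a (3.40), Tnfsf14 (2.39) and Havcr2 (1.67), and 4 lower, among them Cd27 (-2.30); the median of -0.33 turned to 0.09 under median centring. Of 22 TNF superfamily genes, 5 were higher and 2 lower, with the B cell survival receptor Tnfrsf13c at 2.17. Of 29 cytokine receptors, 5 were higher and 6 lower, and 1 of the 5 had signal in the deficient channel only, with a bound short of 2-fold. Cholesterol synthesis (25 genes, 2 higher, 3 lower), chaperones (29 genes, 3 higher, 3 lower) and the Bcl2 family (23 genes, 3 higher, 1 lower) had medians of 0.23, -0.25 and 0.03; the first turned to -0.01 as a mean over probes and the second to 0.63 under median centring. Of 28 chromatin genes, which include the corepressor complex NuRD that Bcl11b is known to bind, 1 was higher and 2 lower, Chd3 (-2.28) and Kdm6b (-1.64), with a median of -0.34 that turned to 0.07 under median centring. Of 8 detected thymocyte genes 4 were higher and 2 lower, among them Kit (2.38), and Rag1, Rag2 and Ptcra were not detected. The red cell, platelet, mast cell and stromal lists had 7, 5, 6 and 7 detected members, of which 1, 1, 3 and 3 were at least 2-fold higher. The platelet gene, Pf4, had signal in the deficient channel only, with a bound of 1.94-fold.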
